A study of Homo sapiens with 7 samples.

Results

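The BCL2 family was followed through 10 listed genes, and every probe annotated to one of them was taken, which gave 17 probes of 48701 on the array and 10 of 19304 named genes. The members are the pro-survival genes BCL2, BCL2L1 and MCL1, the effectors BAX and BAK1, and the BH3-only genes BMF, BCL2L11, BBC3, PMAIP1 and BIK. Expression was measured on 1-colour bead arrays in MCF-10A, a non-transformed human mammary epithelial cell line. In shBrit1 cells (4 arrays) a hairpin RNA against Brit1, a gene of homologous recombination according to the series' design, was expressed stably after lentiviral delivery. shControl cells (3 arrays) received a scrambled hairpin. Both were seeded at the same number of cells, and RNA was taken 48 h later. The design text calls the arrays biological replicates. It does not say how many stable populations or which hairpin sequences were used, so an effect of Brit1 loss, of this hairpin and of the selected population cannot be told apart. The targeted gene itself was not analysed here, so nothing beyond the labels checks the groups.

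Proteins of the BCL2 family decide whether the outer mitochondrial membrane is opened, the step that commits a cell to intrinsic apoptosis. BAX and BAK1 form the pores, the pro-survival proteins hold them and the BH3-only proteins in check, and the BH3-only proteins are switched on by stress and either block the pro-survival proteins or act on the effectors. In mammary epithelial cells grown in culture, BMF and the protein of BCL2L11, called BIM, are known for their part in anoikis, the death of cells that lose contact with the matrix.

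BMF was the member with the largest difference. No shControl array detected it, and with the background correction used here the shBrit1 level was higher by at least 3.30-fold, while the authors' deposited log2 values, which differed by 1.39, give a smaller fold. BBC3 (the gene of PUMA) was 1.59-fold higher, whereas PMAIP1 (the gene of NOXA) was 2.25-fold lower. The 2 probes of MCL1 went in opposite directions, by -0.89 and 0.84 on the log2 scale. The effectors BAX and BAK1 and 1 probe of BCL2 were slightly lower, and these calls were lost under several other settings. BCL2L1, BCL2L11 and BIK did not pass the test on all 7 arrays.

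Between 16537 and 17343 probes per array had a detection p-value under 0.05, the share of negative control beads that are brighter than the probe. Probes that passed this limit on at least 3 of the 7 arrays were tested with limma (17967 probes), and an adjusted p under 0.05 was called. With 7 arrays, their number sets the precision. shControl replicate 3 stood apart, with an SD of probe differences of 0.531 and 0.510 log2 against the other 2 controls, which differed from each other by 0.192, and the shBrit1 arrays from each other by 0.161 to 0.228. Values without this array are given for the members, each at its brightest tested probe. They are also given for other named genes where a call changed or a value moved by over 1.5 times. Of the mammary epithelial markers 10 of 13 had a probe and 9 were detected on all arrays, KRT5 and KRT14 among them. KRT19 and ITGB4 were higher and KRT14, KRT5 and EPCAM lower. When shControl replicate 3 was left out, the brighter KRT18 probe was also called lower (-0.85 log2 in place of -0.19, adjusted p = 0.000227). The other tested KRT18 probe, ILMN_1730848, differed the other way on all arrays and was not called (0.50 log2, adjusted p = 0.0882). EPCAM was at -1.08 in place of -0.70 without shControl replicate 3, and KRT14 at -1.17 in place of -1.72. On all arrays the summed normalized signal of the list ran from 31202 to 34136 in shBrit1 and from 38958 to 64349 in shControl. shControl replicate 3 set the upper end, with KRT14 at 14.52 log2 against 12.82 and 12.81 in shControl replicates 1 and 2.

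Of the 10 members, 7 were called, 2 higher and 5 lower, when each gene was read at its brightest tested probe. This is 70.0% of the members, against 59.6% of all 12372 named genes tested, of which 29.5% were higher and 30.1% lower. The arrays of the groups did not overlap for 6 of the 10 members, against 61.8% of all genes. The members' shares thus lay near those of all genes, and the median difference of the 10 was -0.25 log2, against -0.01 over all genes. Over single probes, 3 were higher and 5 lower of the 13 tested, against 53.8% of all probes called in either direction. Among the 3 pro-survival genes 2 were lower, both effectors were lower, and among the 5 BH3-only genes 2 were higher and 1 lower. Without shControl replicate 3 again 7 members were called, 3 higher and 4 lower, with BIK gained and BAX lost, against 69.2% of all genes in that fit (34.4% higher and 34.9% lower). In these bulk samples fewer cells that express a gene and less RNA per cell cannot be told apart.

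**Figure D1:**
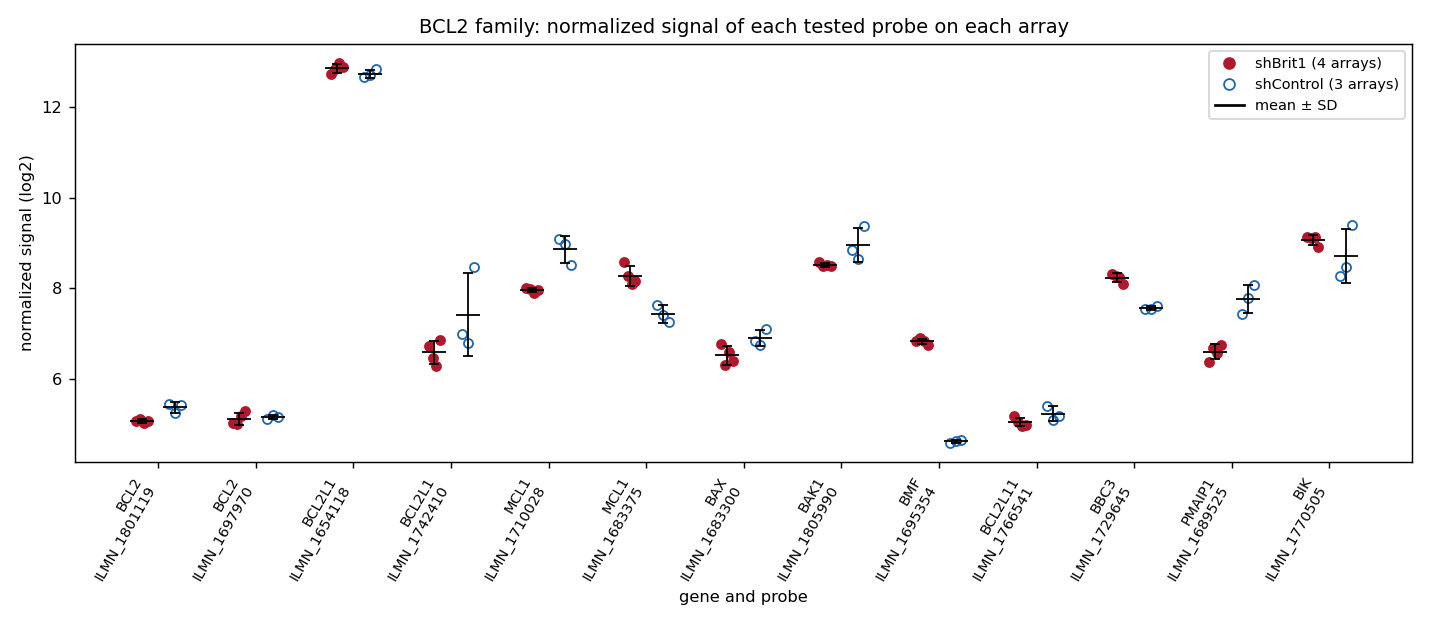
Normalized log2 signal (vertical axis) of the 13 tested probes of BCL2 family genes (horizontal axis) on each array, shBrit1 as filled and shControl as open circles, with mean and SD in black. BMF in shControl sits between 4.59 and 4.65, at the floor of the scale, and in shBrit1 between 6.76 and 6.90, and the 2 MCL1 probes part in opposite directions.

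Among the BH3-only genes, BMF (Bcl-2 modifying factor) is held at the cytoskeleton in healthy cells and released when cells detach. Its probe ILMN_1695354 had deposited signals of 171, 190, 183 and 181 in shBrit1 replicates 1 to 4, against 58.9, 67.6 and 68.3 in shControl replicates 1 to 3. The groups were far apart, and the detection p-value was at most 0.00437 on every shBrit1 array and at least 0.820 on every shControl array. After normalization the mean was 6.84 ± 0.06 (SD, n = 4) in shBrit1 and 4.63 ± 0.03 (SD, n = 3) in shControl, with an adjusted p of 2.31e-07 (limma). The probe passed the detection filter only through the shBrit1 arrays, and its control SD was taken at background. This p thus does not measure how certain the rise is. Because the control values were at background, the difference is given as a bound of at least 3.30-fold. Both this bound and the fitted log2 difference of 2.21 (SE 0.08) hold for this background correction only. Over all genes 1.93% had a fitted difference at least as high, which puts BMF behind 238 others. Without shControl replicate 3 the fitted difference was 2.22.

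The other 2 probes of BMF, ILMN_1787794 and ILMN_1810239, were not detected on any of the 7 arrays and were not tested. Their deposited signals ran from 69.5 to 87.1 in shBrit1 and from 64.0 to 82.2 in shControl. The rise of BMF was thus read by 1 of its 3 probes. The sources used here do not say which transcripts each probe binds.

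BBC3 encodes PUMA, a BH3-only protein that binds all pro-survival members. Its normalized log2 signals were 8.31, 8.28, 8.26 and 8.10 in shBrit1, against 7.55, 7.54 and 7.61 in shControl. The groups did not overlap, with shBrit1 the higher. The difference was 0.67 log2 (SE 0.09), or 1.59-fold, with an adjusted p of 0.000227, and 0.68 without shControl replicate 3.

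PMAIP1 encodes NOXA, a BH3-only protein with a preference for MCL1. Its log2 signals were 6.38, 6.69, 6.58 and 6.76 in shBrit1, against 7.44, 7.80 and 8.06 in shControl. All shBrit1 arrays were lower than all controls. The difference was -1.17 log2 (SE 0.16), or 2.25-fold lower, with an adjusted p of 0.000245. Without shControl replicate 3, its highest control, it was -1.01.

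BIK encodes a BH3-only protein of the endoplasmic reticulum. Its log2 signals were 9.13, 9.11, 9.12 and 8.92 in shBrit1, against 8.28, 8.48 and 9.40 in shControl. The groups overlapped only through shControl replicate 3, which was the highest of the 7 arrays. On all arrays the difference was 0.35 log2 (95% interval -0.19 to 0.88, adjusted p = 0.251). Without that array it was 0.68 (adjusted p = 0.000100), so 1 control array decides whether BIK is called. With median scaling in place of quantile normalization the difference on all arrays was 0.09.

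BCL2L11 encodes BIM, which binds all pro-survival proteins and can activate BAX directly. Its tested probe ILMN_1766541 was detected on 1 of the 4 shBrit1 arrays and on all 3 shControl arrays. The log2 signals were 5.18, 5.06, 4.97 and 5.00 in shBrit1, against 5.41, 5.11 and 5.19 in shControl. The groups overlapped close to background, and the difference was -0.19 log2 (95% interval -0.42 to 0.05, adjusted p = 0.164). Without shControl replicate 3 the difference was -0.21 (adjusted p = 0.111, limma). Its second probe was left out as too dim.

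To set the members that differed beside one that was not called, the stretch around the annotated start of 4 BH3-only genes is shown, from 250 bases before to 50 after it (RefSeq, GRCh38.p14). Capitals mark the forkhead core TGTTT, the cyclic AMP response element core TGACG and the E-box CACGTG, on either strand.
BMF, chr15:40108830-40109129, minus strand: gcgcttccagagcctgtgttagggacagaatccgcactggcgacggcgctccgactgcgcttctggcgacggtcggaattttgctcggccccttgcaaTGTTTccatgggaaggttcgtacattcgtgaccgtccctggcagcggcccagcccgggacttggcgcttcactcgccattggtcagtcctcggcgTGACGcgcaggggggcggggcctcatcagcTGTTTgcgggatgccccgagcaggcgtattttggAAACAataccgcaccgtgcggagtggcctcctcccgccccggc
BBC3, chr19:47232618-47232917, minus strand: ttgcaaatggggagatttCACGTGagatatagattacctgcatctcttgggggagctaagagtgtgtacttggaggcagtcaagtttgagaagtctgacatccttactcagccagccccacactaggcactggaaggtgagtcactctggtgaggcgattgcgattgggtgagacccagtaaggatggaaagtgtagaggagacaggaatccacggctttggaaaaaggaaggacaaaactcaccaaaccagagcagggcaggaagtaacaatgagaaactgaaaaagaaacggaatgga
PMAIP1, chr18:59899746-59900045, plus strand: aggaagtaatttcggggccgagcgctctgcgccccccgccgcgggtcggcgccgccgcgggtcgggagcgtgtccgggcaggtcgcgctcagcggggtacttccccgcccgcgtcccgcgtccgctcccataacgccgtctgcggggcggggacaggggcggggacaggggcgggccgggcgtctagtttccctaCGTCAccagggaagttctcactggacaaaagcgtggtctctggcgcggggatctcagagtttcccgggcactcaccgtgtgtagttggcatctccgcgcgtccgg
BCL2L11, chr2:111120664-111120963, plus strand: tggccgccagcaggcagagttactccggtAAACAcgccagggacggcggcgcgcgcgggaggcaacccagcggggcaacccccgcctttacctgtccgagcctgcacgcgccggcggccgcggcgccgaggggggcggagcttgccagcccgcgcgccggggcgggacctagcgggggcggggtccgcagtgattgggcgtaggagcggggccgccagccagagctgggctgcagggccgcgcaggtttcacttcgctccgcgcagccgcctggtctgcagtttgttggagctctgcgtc

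The sequences were shown because forkhead factors are textbook regulators of BMF, BBC3 and BCL2L11. The forkhead core TGTTT occurred 3 times in the first BMF window (152 and 27 bases before the start and 8 after it) and not in the second BMF window or those of BBC3 and PMAIP1. It was in 3 of the 10 windows of members, the other two being of BCL2L11 and BCL2L1, which were not called, while 44.4% of 35116 promoters of this length hold it. The longer form TGTTTAC, which contains TGTTT, was found on the minus strand 223 bases before the BCL2L11 start and in no other of the 10 windows that RefSeq's table lists for 8 of the members, against 3.42% of all promoters. TGACG was in windows of 5 members, BMF, PMAIP1, BCL2, BAX and BCL2L1, and in 24.6% of all. CACGTG was in the window of BBC3 and 4 times in that of BAX, where 1 copy overlaps TGACG, and in 7.26% of all. The full element TGACGTCA (1.85% of all promoters) and the E2F forms GCGCGAAA (0.515%) and GCGCCAAA (0.652%) were not in these 10 windows. A match is a run of letters and not evidence of binding. MCL1 and BIK are not in this table.

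Among the pro-survival genes, MCL1 encodes a short-lived protein whose transcript is spliced into a long pro-survival form and a shorter one that acts like a BH3-only protein. Its brighter probe ILMN_1710028 had log2 signals of 8.01, 7.99, 7.89 and 7.96 in shBrit1, against 9.08, 8.98 and 8.51 in shControl. The other probe, ILMN_1683375, had 8.58, 8.26, 8.09 and 8.17 in shBrit1, against 7.63, 7.42 and 7.26 in shControl. For neither probe did the groups overlap, and the shBrit1 arrays were all lower in the first and all higher in the second.

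The MCL1 difference was -0.89 log2 (SE 0.14, adjusted p = 0.000556), or 1.86-fold lower, at the first probe and 0.84 (SE 0.14, adjusted p = 0.000942), or 1.79-fold higher, at the second. Over all genes 23.7% differed by at least as much in size as the first. Without shControl replicate 3 the values were -1.06 and 0.74. Within each array, the first probe minus the second was -0.57, -0.27, -0.20 and -0.21 log2 in shBrit1, against 1.45, 1.56 and 1.26 in shControl. This within-gene difference shifted by -1.74 log2 (exact two-sided permutation test over the arrays, p = 0.0286, the smallest that 35 splits allow, adjusted p = 0.0429 over the 3 members with 2 tested probes). Since each probe already separated the groups, in opposite directions, this p could only be the smallest and adds nothing to the single probes. Without shControl replicate 3 the shift was -1.79, where the smallest exact p is 0.0667. Probes called in opposite directions were found in 59 of 1411 named genes with at least 2 tested probes (4.18%). The count of MCL1 as lower rests on the choice of the brighter probe, and with the mean of both probes the difference was -0.03 (adjusted p = 0.871). The sources used here do not say which form of the transcript each probe binds.

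**Figure D2:**
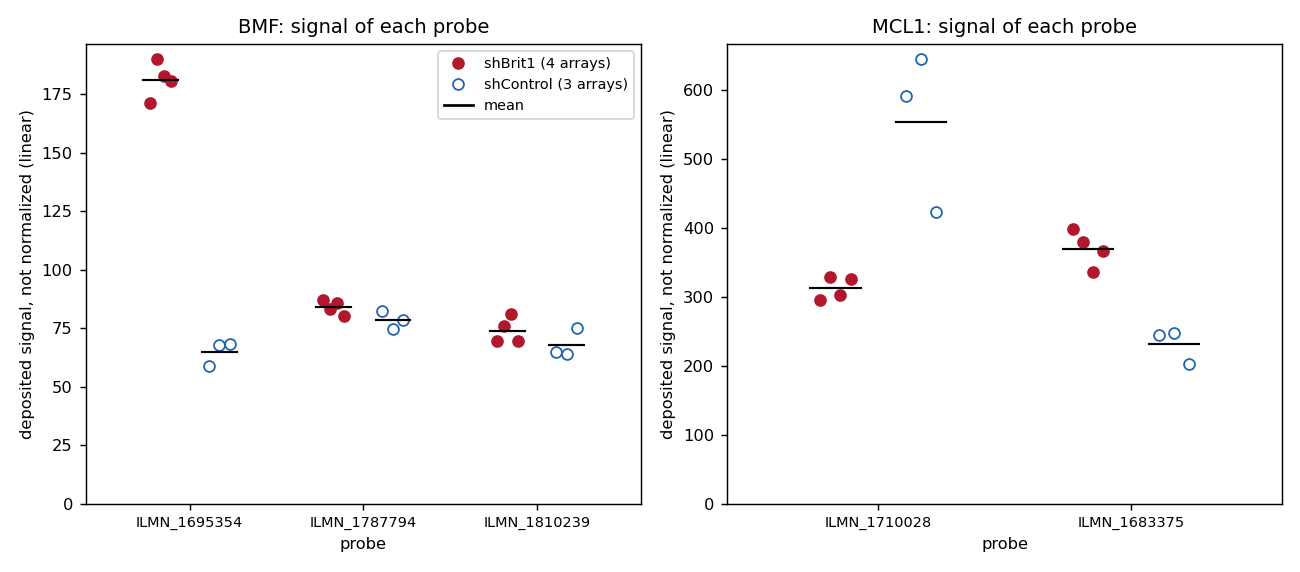
Deposited, not normalized signal (linear vertical axis from 0) of every probe of BMF (left) and MCL1 (right), shBrit1 as filled and shControl as open circles, with group means as lines. Of the 3 BMF probes only ILMN_1695354 separates the groups (171 to 190 in shBrit1, 58.9 to 68.3 in shControl), and the 2 MCL1 probes separate them in opposite directions.

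BCL2L1, whose main product BCL-XL guards epithelial cells from apoptosis and whose shorter splice form promotes it, also had 2 tested probes that parted. At ILMN_1654118 the log2 signals were 12.72, 12.83, 12.97 and 12.88 in shBrit1, against 12.67, 12.70 and 12.83 in shControl. The groups overlapped, and the difference was 0.12 log2 (95% interval -0.10 to 0.34, adjusted p = 0.323), with the sign turned under median scaling (-0.16, adjusted p = 0.329). Without shControl replicate 3 the difference was 0.17 (adjusted p = 0.135, limma). ILMN_1742410 had 6.74, 6.46, 6.30 and 6.85 in shBrit1, against 7.0, 6.79 and 8.47 in shControl. Here shControl replicate 3 was far above the rest, and the difference was -0.83 log2 (SE 0.36, adjusted p = 0.0826), -0.31 without that array (adjusted p = 0.0891) and -1.14 without shControl replicate 2 (adjusted p = 0.0298). The first probe minus the second was higher in shBrit1 than in shControl by 0.95 log2 (exact two-sided permutation test, p = 0.0286, adjusted p = 0.0429), and by 0.48 without shControl replicate 3 (exact p = 0.133, where 15 splits allow 0.0667 at the lowest). On all arrays the means of 6.26 ± 0.32 (SD, n = 4) in shBrit1 and 5.31 ± 0.83 (SD, n = 3) in shControl.

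BCL2, the founding pro-survival member, was close to background in both groups. Its probe ILMN_1801119 had log2 signals of 5.06, 5.13, 5.02 and 5.07 in shBrit1, against 5.44, 5.24 and 5.44 in shControl, and was detected on 1 of the 4 shBrit1 and all 3 shControl arrays. The groups did not overlap, and the difference was -0.30 log2 (SE 0.09, adjusted p = 0.0179), or 1.23-fold lower. The call was lost in 4 of 16 alternatives: without shBrit1 replicate 3 (adjusted p = 0.0532), without shControl replicate 1 (0.0640), with a replicate block (0.0928) and with the mean of both tested probes (-0.17 log2, adjusted p = 0.0941). The difference without shControl replicate 3 was -0.27 (adjusted p = 0.0217). The second tested probe, ILMN_1697970, overlapped between the groups (log2 difference -0.04, 95% interval -0.26 to 0.19), and the probe ILMN_1701120 was not detected on any array. The first tested probe minus the second differed by -0.27 log2 between shBrit1 and shControl (exact two-sided permutation test, p = 0.143).

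The effectors differed by little. BAX had log2 signals of 6.78, 6.32, 6.60 and 6.41 in shBrit1, against 6.84, 6.76 and 7.09 in shControl. shBrit1 replicate 1 overlapped with the lowest control, and the difference was -0.37 log2 (SE 0.14, adjusted p = 0.0448), or 1.29-fold lower. The call was lost in 11 of 17 alternatives, among them the authors' deposited log2 values (adjusted p = 0.0541), and without shControl replicate 3 the difference was -0.27 (adjusted p = 0.0770).

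BAK1, the second effector, had log2 signals of 8.58, 8.49, 8.52 and 8.49 in shBrit1, against 8.84, 8.66 and 9.37 in shControl. The groups did not overlap, and shControl replicate 3 was the highest array. The difference was -0.43 log2 (SE 0.16, adjusted p = 0.0428), or 1.35-fold lower, and -0.22 without that array (adjusted p = 0.0461). The call was lost in 7 of 17 alternatives, where the adjusted p reached 0.0960, including each fit that left out 1 of the 4 shBrit1 arrays or shControl replicate 1.

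**Figure D3:**
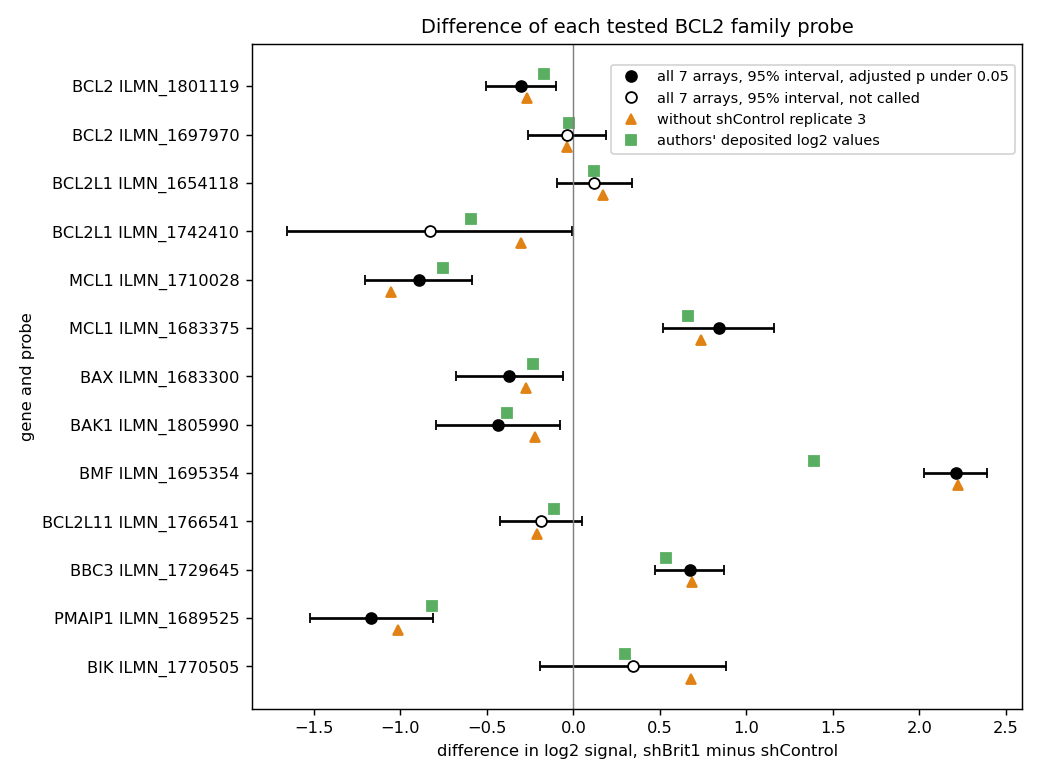
Difference in log2 signal, shBrit1 minus shControl (horizontal axis), of each tested BCL2 family probe, with the 95% interval from limma on all 7 arrays (filled circle, called; open circle, not called), the value without shControl replicate 3 (triangle) and the value from the authors' deposited log2 values (square). BMF at 2.21, BBC3 at 0.67, PMAIP1 at -1.17 and the MCL1 pair at -0.89 and 0.84 keep their side of 0 in all 3, while BIK moves from 0.35 to 0.68 without that control array.

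The genes most like BMF across the 7 arrays, by Pearson's r of the log2 signals, were NTN5, a netrin-like gene (r = 0.9996), PLAAT4, a phospholipase and acyltransferase gene (r = 0.9994), and OPLAH, an oxoprolinase gene of glutathione turnover (r = 0.9994). NTN5, like BMF, went undetected in shControl, and its shBrit1 level was higher by at least 2.31-fold. PLAAT4, detected on 1 of the 3 shControl arrays, averaged 8.50 ± 0.02 in shBrit1 and 5.03 ± 0.08 in shControl, and OPLAH 11.04 ± 0.07 in shBrit1 and 9.25 ± 0.03 in shControl (SD, n = 4 and n = 3). The 7 points share the step between the groups, and 465 of 12371 genes had an r over 0.99.

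Of the 13 other relatives of BCL2, 9 were tested, with 3 higher and 2 lower and a median of 0.22 log2. Over all genes 29.5% were higher and 30.1% lower. HRK, a BH3-only gene known from neurons, was 4.91-fold higher (log2 difference 2.30, SE 0.11, adjusted p = 9.45e-07). Its log2 signals were 7.71, 7.38, 7.33 and 7.45 in shBrit1, against 5.15, 5.29 and 5.08 in shControl, and it was detected on 2 of the 3 controls, which makes its fold less certain. As with BMF, all shBrit1 arrays lay far above controls that were near background.

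BAD, a BH3-only gene whose product is held by phosphoserine-binding adaptors in growing cells, averaged 9.85 ± 0.18 in shBrit1 and 8.99 ± 0.15 in shControl (SD, n = 4 and n = 3), or 1.82-fold higher, and its 3 tested probes were all higher. BCL2L13, a mitophagy receptor gene, was 1.63-fold higher. BCL2L12 was 1.64-fold lower, and BNIP3, a hypoxia-inducible mitophagy receptor gene, 1.40-fold lower. BNIP3L (0.29), BCL2L2 (0.22), BOK (0.13) and BID (-0.02 log2) did not pass the test, and without shControl replicate 3 BCL2L2 (0.37, adjusted p = 0.00293) and BOK (0.33, adjusted p = 0.0346) did. In that fit BNIP3L (0.14, adjusted p = 0.234) and BID (0.16, adjusted p = 0.140) again did not pass. BCL2A1, BCL2L10, BCL2L14 and BCL2L15 were too dim to be tested.

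Downstream of the mitochondria, the apoptosome and caspase list had 1 gene higher and 4 lower of 7 tested, with a median of -0.30 log2. CASP9, the initiator caspase of the apoptosome, was 2.78-fold higher, with log2 signals of 7.88, 8.19, 8.02 and 8.05 in shBrit1, against 6.77, 6.36 and 6.55 in shControl. The other tested probe of CASP9, ILMN_1786046, was higher by only 0.29 log2 (adjusted p = 0.0376), against 1.47 at the brighter one. The partners of CASP9 moved the other way, APAF1, the scaffold of the apoptosome, being 1.95-fold lower and CYCS, the gene of cytochrome c, 1.97-fold lower. CASP2, a caspase linked to DNA damage and mitotic stress, had a log2 difference of -0.59 and was called lower too. Among the inhibitors of apoptosis and their mitochondrial antagonists, 2 were higher and 3 lower of 6 tested, with a median of -0.25. For this list and the caspase list, the shares over all genes were 29.5% higher and 30.1% lower. Both antagonists were higher, DIABLO 1.72-fold and HTRA2 1.40-fold, while the inhibitors BIRC5 (1.78-fold), BIRC6 (1.34-fold) and XIAP (1.33-fold) were lower, BIRC5 being also a gene of cell division.

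Genes of mitochondrial partners were lower for 8 of the 10 tested and higher for 0, with a median of -0.59 log2, where 30.1% of all genes were lower. DNM1L, which divides mitochondria, was 2.52-fold lower, MFN1, which fuses them, 2.05-fold, the channel gene VDAC3 1.67-fold and MTCH2, which encodes a mitochondrial receptor of BID, 1.58-fold. Cytosolic binders of BH3-only proteins were lower for all 9 tested, with a median of -0.91. DYNLL1 and DYNLL2, dynein light chains that tether BIM and BMF, averaged 13.29 ± 0.06 and 8.23 ± 0.15 in shBrit1, against 14.20 ± 0.20 and 9.19 ± 0.11 in shControl, and were 1.88-fold and 1.96-fold lower. The adaptor genes YWHAB, YWHAH and YWHAE, whose products bind phosphorylated BAD, were 2.05-fold, 1.96-fold and 1.87-fold lower. The other probe of YWHAZ did not share the difference of the brighter one (0.04 against -0.56 log2).

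Genes known to act on the turnover of MCL1 protein were higher in 1 and lower in 3 of 7 tested cases, with a median of -0.15 log2. The deubiquitinase gene USP13 was 1.93-fold lower and the kinase gene GSK3B 1.63-fold lower, while the ubiquitin ligase gene BTRC was 1.65-fold higher. DESI2 was 1.37-fold lower. Transcription factors that are known to drive BH3-only genes were higher in 5 and lower in 3 of 12 tested cases, with a median of 0.11. For this list and that of MCL1 turnover, the shares over all genes were 29.5% higher and 30.1% lower. The forkhead genes rose together: FOXO1 had log2 signals of 11.23, 11.30, 11.36 and 11.19 in shBrit1, against 8.50, 8.39 and 8.08 in shControl, and FOXO4 9.64, 9.65, 9.86 and 9.84 in shBrit1, against 7.24, 7.20 and 7.20 in shControl. They were 7.72-fold and 5.79-fold higher, FOXO3 was 1.95-fold higher, and DDIT3, the stress factor CHOP, averaged 9.33 ± 0.10 in shBrit1 and 6.99 ± 0.42 in shControl (SD, n = 4 and n = 3). E2F1, also a driver of BH3-only genes, averaged 5.59 ± 0.10 in shBrit1 and 7.92 ± 0.22 in shControl. In the 7 lists together 44 of 60 tested genes were called, 12 higher and 32 lower, against 59.6% of all genes. It was 49 without shControl replicate 3, 16 higher and 33 lower, against 69.2% of all genes, and BCL2L2, BOK, AIFM1, ATF3 and FBXW7 were the ones gained. In that fit AIFM1 was at -0.41 log2 in place of -0.27 (adjusted p = 0.00256). ATF3 was at 0.51 in place of -0.16 (adjusted p = 0.000528), and FBXW7 at 0.31 in place of 0.21 (adjusted p = 0.0123). On all arrays another FBXW7 probe, ILMN_1668634, was called lower (-0.78 log2, adjusted p = 0.00255). The FBXW7 probe ILMN_1655906 was not called (-0.002). Of AIFM1, the probe ILMN_1717357 was called lower on all arrays (-0.67 log2, adjusted p = 0.0172, limma), while ILMN_1667183 was not called (-0.13).

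**Figure D4:**
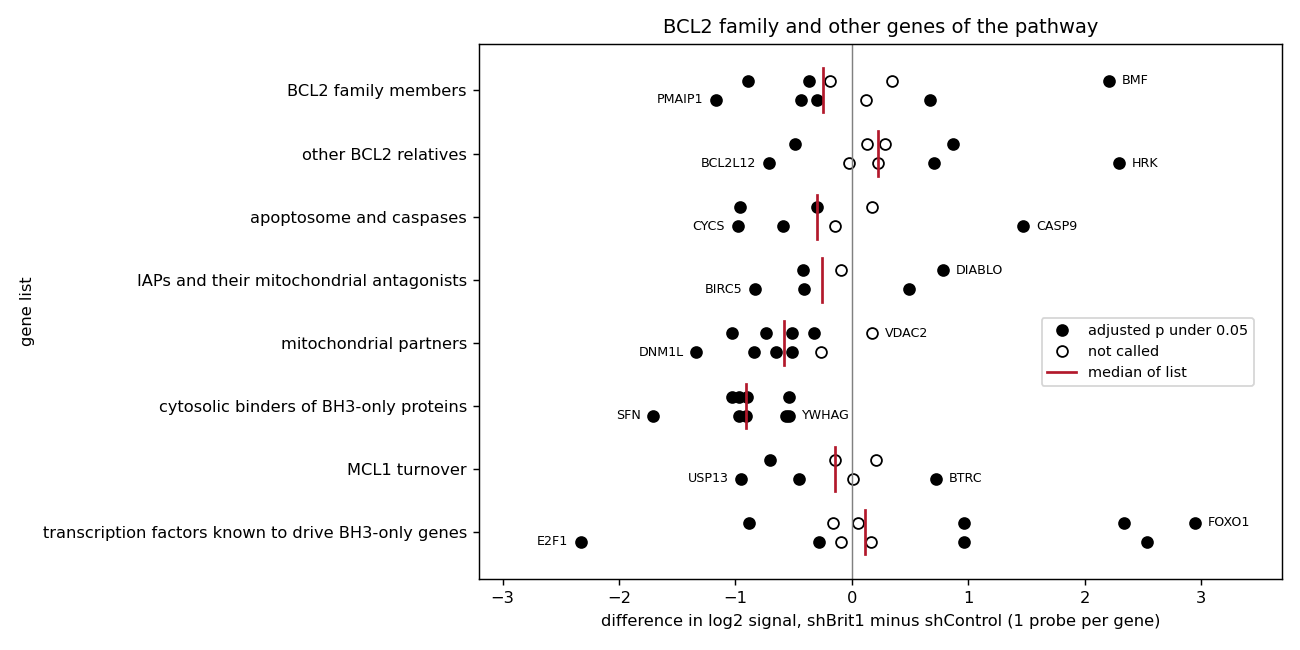
Difference in log2 signal, shBrit1 minus shControl (horizontal axis), of each tested gene at its brightest probe, by gene list (vertical axis), filled where the adjusted p was under 0.05, with the median of each list in red and the lowest and highest gene named. The cytosolic binders lie left of 0 in all 9 cases, whereas the BCL2 family spreads from -1.17 (PMAIP1) to 2.21 (BMF).

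Markers of other cell types were read beside these results. Of 6 immune cell markers 5 had a probe, 3 were tested and 2 were higher, CD14 and CD68, with a summed signal of 2621 to 3050 in shBrit1 and 585 to 1093 in shControl. shControl replicate 3 set the lower end of the control range, with LCP1 at 6.74 log2 against 9.18 and 9.27 in shControl replicates 1 and 2. CD3E was not detected on any array, and PTPRC on none of the shBrit1 arrays and, with 2 of its 3 probes, on 1 shControl array each. Of 6 fibroblast markers COL1A1 and COL3A1 were tested and both were higher (summed signal 236 to 276 in shBrit1 and 116 to 139 in shControl), while PDGFRA, PDGFRB and THY1 were not detected on any array. COL1A2, too dim to be tested, was detected on 2 of the 4 shBrit1 arrays and on 0 of the 3 shControl arrays. COL3A1 was at 0.60 log2 in place of 0.92 without shControl replicate 3. Of 4 endothelial markers 2 were tested and 0 called by limma, 0 also at an unadjusted p under 0.05. The fit without shControl replicate 3 called PECAM1 lower (-0.21 log2, adjusted p = 0.0488), and the immune marker LCP1 higher (0.55 log2, adjusted p = 0.000156). That fit called 69.2% of all genes. The part of these markers in the differences of the BCL2 family was not tested.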

How the data were processed

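Arrays were grouped by the sample titles (4 shBrit1, 3 shControl). Per the file headers, the authors deposited for every array a linear signal intensity and, beside it, a detection p-value per probe. Array medians of 75.9 to 87.6 show that the intensity values had not been normalized between arrays. A detection p-value column was assigned to the array whose signal it tracked (Spearman's rho -0.998 or stronger). The log2 values that the authors also deposited share a median of 6.37 and track the signal of the matching array (r of at least 0.9993), in the same direction and not centred. They served as an alternative, which gave nearly the same results as leaving out the background correction (9589 probes called in both). These alternatives are thus not separate checks. The sources used here do not name the tool behind the deposited log2 values. They do not name the build of the probes either.

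Signals were corrected and quantile-normalized with neqc (limma 3.58.1, R 4.3.3), which used the detection p-values and an offset of 16, and taken to log2. The 17967 probes that 3 or more of the 7 arrays detected (p-value under 0.05) were fitted together (lmFit, eBayes, two-sided, Benjamini-Hochberg over all of them), and the code was tested on simulated data. Gene symbols came from the platform annotation, in which 24782 of 48701 probes have 1 symbol, and RefSeq changed 0 of them. A gene was read at its tested probe with the highest mean over all arrays. For a gene undetected throughout one group, the fold is a bound: the bright group's mean was set against the dim group's, taking on each array the higher of the lowest detected signal and the probe's own. All members and all other BCL2 relatives were named, with up to 4 genes of smallest p-value from each further list and the 3 genes most like BMF. XIAP, DYNLL1, YWHAZ, FOXO3, AIFM1, ATF3 and FBXW7 were named after their values were seen. EPCAM, KRT18 and some markers too dim to be tested were also named outside this rule. The members, lists and tests were chosen with earlier results of these data known. Alternatives changed the background correction, the normalization, the filter on dim probes, the variance model and the choice of probe, used the authors' log2 values, left out each array or added a replicate block.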

Additional observations from a re-analysis of the deposited data

Results flagged for a closer look

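Among the 13 tested probes of the family, BIK had 1 shBrit1 array away from the other 3: replicate 4 was at 8.92 log2, the others between 9.11 and 9.13, and the gap took 0.893 of the group's range, above Dixon's 95% critical value for 4 arrays. Chance alone gives such a gap in about 1 of 20 groups. Without that array the BIK difference was 0.40 log2 (adjusted p = 0.262, limma), again not called.

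The second probe of BCL2L11, ILMN_1774997, was too dim to be tested but was detected on 2 of the 4 shBrit1 arrays and on 0 of the 3 shControl arrays. Its log2 signals were 4.86, 5.21, 4.92 and 5.15 in shBrit1, against 4.73, 4.94 and 4.98 in shControl, so the groups overlapped.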

How the results depend on the processing

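The differences of BMF, BBC3, PMAIP1 and the MCL1 probe ILMN_1683375 kept their direction and their call in every alternative that tested them. BMF was not tested among probes detected on all 7 arrays, and ILMN_1683375 has no value of its own in the mean of both MCL1 probes. The same held for those of the MCL1 probe ILMN_1710028 in all but that mean (-0.03). The log2 differences ran from 1.39 to 2.24 for BMF, from 0.53 to 0.72 for BBC3, from -1.32 to -0.82 for PMAIP1 and from 0.66 to 0.93 for ILMN_1683375. The number of members called was 4 to 7 with 1 array left out. It was 4 without shBrit1 replicate 3, 4 without shControl replicate 1, and 4 to 7 in the other settings. BCL2L1 turned its sign with median scaling (-0.16) and with the mean of its probes (-0.36), and the BCL2 probe ILMN_1697970 without shBrit1 replicate 2, where values without 1 array ran from -0.0928 to 0.0035. Median scaling moved the median of all genes to -0.15 log2 and gave 3589 probes higher and 5690 lower, against 4829 higher and 4840 lower. Deviations of same-numbered arrays from their group means correlated at only 0.10, -0.02 and 0.09 across probes. For replicates 1 and 3, but not 2, the same-numbered control was still the closest match of the shBrit1 array. Whether the numbers mark pairs is thus not settled. With the replicate number as a block (replicates 1 to 3) 8457 probes and 4 members were called, 2 higher and 2 lower, and 3 in place of 5 of the inhibitors of apoptosis and their antagonists. The probe-pair values without shControl replicate 3 were chosen after seeing the data. The causes of these shifts were not tested. Probes near background, such as those of BCL2, BCL2L11 and BMF in shControl, limit what can be measured.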
